A study of Homo sapiens with 22 samples.

Results

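The ERBB receptors and their ligands were followed through the reprogramming of BJ cells, an established line of human foreskin fibroblasts, into induced pluripotent stem cells in microfluidic channels. The set holds 8 genes of the 33694 in the count tables, chosen by symbol: the 4 receptors EGFR, ERBB2, ERBB3 and ERBB4, and the ligands NRG1, AREG, EREG and HBEGF. D0 cells were untransfected fibroblasts. All others received the mRNAs for POU5F1, SOX2, KLF4, MYC, LIN28 and NANOG: the cells of D3 to D7 were taken in the course of 8 transfections, and those of D9 to D15 after the last, on day 8, and a change of medium on day 9. Single-cell RNA was counted on D0, D3, D5, D7, D9, D11, D13 and D15, with 2 pools of cells per day (A and B, each from 4 chips, n = 2). All cells are from 1 line, the cells had been frozen before capture, and time, transfection and medium cannot be told apart where D0, D3 to D7 and D9 to D15 are compared with each other.

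ERBB receptors are tyrosine kinases of the cell surface that work in pairs. EGFR binds AREG, EREG and HBEGF, ERBB3 binds NRG1 but has almost no kinase activity of its own, ERBB2 has no known ligand and serves as the favoured partner of the others, and ERBB4 binds neuregulins and also HBEGF and EREG. The ligands are made as membrane proteins and are released by proteases of the ADAM family, and the receptors signal through RAS and ERK and through PI3-kinase and AKT. EGFR is the usual receptor of fibroblasts, ERBB2 and ERBB3 are found in epithelia and in primed pluripotent cells, and ERBB4 is known from heart and brain.

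By the GENCODE annotation of GRCh38, EGFR lies at chr7:55019017-55211628, ERBB2 at chr17:39687914-39730426 and ERBB3 at chr12:56076799-56103505 on the plus strand, and ERBB4 at chr2:211375717-212538841 on the minus strand. HBEGF lies at chr5:140332843-140346603 on the minus strand. EREG (chr4:74365145-74388749) and AREG (chr4:74445136-74455005) are neighbours on the plus strand, with 56386 bases between them. ERBB3 overlaps an unnamed gene on its own strand (ENSG00000257411), and reads shared by both genes may not have been counted for either. The tables count UMIs (unique molecular identifiers, 1 for each captured molecule) at the 3' end, so levels in CPM (UMIs per 1000000 UMIs of the pool) are set side by side between genes without a correction for gene length.

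The windows of 250 bases before the RefSeq starts (GRCh38.p14) of AREG, EREG and HBEGF are shown. These 3 EGFR ligands were higher in the same marker class of cells, though not confined to it, but followed different courses, as described further on. Capitals mark matches on either strand to TATAAA (the TATA box), TGACGTCA (the cAMP response element) and GGGCGG (the GC box). They are chr4:74444886-74445135 and chr4:74364895-74365144 on the plus strand and chr5:140346604-140346853 on the minus strand, each written 5' to 3' in the direction of its gene.
AREG: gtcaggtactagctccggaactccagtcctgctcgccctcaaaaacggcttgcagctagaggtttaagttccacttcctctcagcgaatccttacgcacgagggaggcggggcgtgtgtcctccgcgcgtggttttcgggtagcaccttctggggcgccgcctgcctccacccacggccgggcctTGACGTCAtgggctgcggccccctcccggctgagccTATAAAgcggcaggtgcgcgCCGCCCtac
EREG: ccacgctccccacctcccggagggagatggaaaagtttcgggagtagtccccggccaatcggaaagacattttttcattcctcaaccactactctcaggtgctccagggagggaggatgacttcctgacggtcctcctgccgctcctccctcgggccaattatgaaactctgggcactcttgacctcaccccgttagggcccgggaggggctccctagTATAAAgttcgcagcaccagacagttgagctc
HBEGF: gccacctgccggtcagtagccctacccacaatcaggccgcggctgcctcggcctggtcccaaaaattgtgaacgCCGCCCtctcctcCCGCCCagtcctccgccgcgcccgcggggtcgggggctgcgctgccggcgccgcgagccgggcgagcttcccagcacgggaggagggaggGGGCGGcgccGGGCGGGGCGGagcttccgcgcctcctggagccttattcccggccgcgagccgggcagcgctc
AREG and EREG each held 1 TATA box, beginning 29 and 32 bases before the start, which 10.7% of the 35116 promoters in the table held. AREG also held the cAMP response element, 65 bases before the start, found in 1.65% of promoters, and 1 GC box, found in 42.6%. HBEGF held no TATA box and 5 GC boxes, of which the last 2 overlap. TGANTCA, GCCNNNGGC and CACGTG, which 6.57%, 19.8% and 6.34% of promoters held, did not match in these 3 windows. A match describes the letters only. Of the 8 genes, 7 were in the table and ERBB3 was not.

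The tables held 44197 barcodes in 22 libraries, of which 41975 were kept, having no fewer than 1000 genes and no more than 10% of UMIs from mitochondria. Pools held 571 to 6142 cells and 33181614 to 180056814 UMIs, with medians of 23717 to 80168 UMIs per cell. Of the barcodes, 1185 occurred in more than 1 library, and no pair of libraries shared more than 41. The D0 cells carried collagen and matrix markers at 4419 to 4582 CPM in sum, with all 10 at 1 CPM or more, against 8.64 to 8.67 CPM for 9 pluripotency markers. On D15 the latter summed to 2030 to 2317 CPM. Of the 16 pools, 6 had been captured as 2 aliquots, which were added, and the aliquots of D9 stood apart from each other. In both pools of D9 the first aliquot held fewer collagen-marker-high cells (defined further on) than the second, 28.0% against 48.0% in pool A and 27.4% against 47.9% in pool B. AREG differed most, at 0.555 CPM in the first aliquot of D9 pool A (143 cells) and 19.5 CPM in the second (1599 cells), and 3.34 CPM (889 cells) and 20.3 CPM (764 cells) in those of pool B. Levels summed over a D9 pool therefore depend on the sizes of its aliquots. Over the 7 genes other than ERBB4, aliquots of a pool differed by a median of 0.51 on the log2(CPM + 1) scale.

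**Figure D1:**
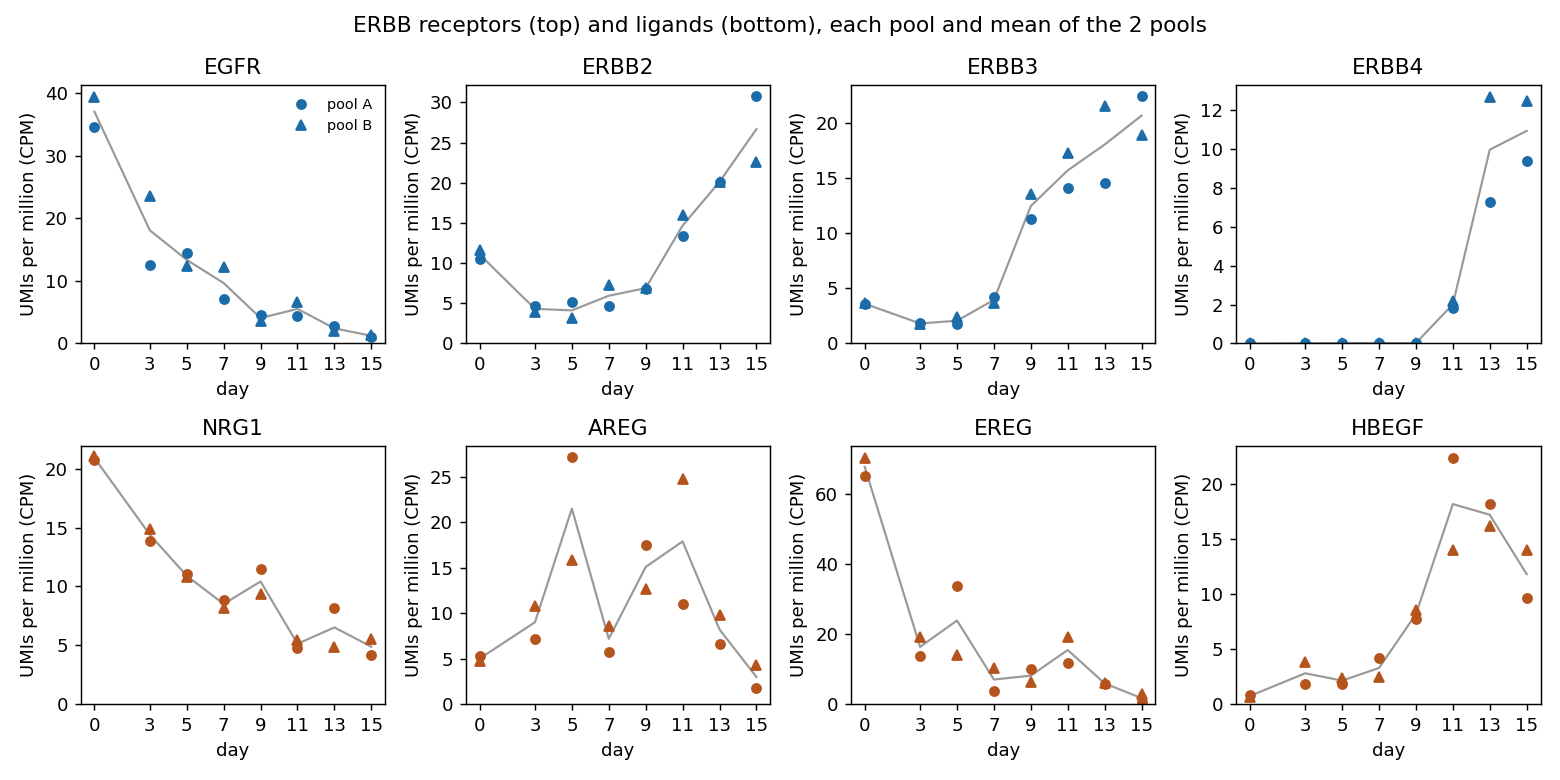
Level of each receptor (top row) and ligand (bottom row) in CPM (linear axes from 0) against day. Circles and triangles are pools A and B and the line is their mean. EGFR, EREG and NRG1 were highest on D0, ERBB2 and ERBB3 on D15, and ERBB4 was first seen in quantity on D11.

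The first question was which receptors the cells made on each day. EGFR, the fibroblast receptor, was detected at 34.7 and 39.4 CPM on D0, 12.6 and 23.7 on D3, 14.4 and 12.3 on D5, 7.07 and 12.3 on D7, 4.51 and 3.63 on D9, 4.45 and 6.62 on D11, 2.86 and 1.99 on D13 and 1.02 and 1.43 on D15. Its level was highest on D0 and lowest on D15 in both pools; the pools of D3 and D5 overlapped, as did those of D9 and D11. EGFR and ERBB3 were chosen with the ratio of ERBB3 to EGFR in these data known. The p-values of both by day are therefore given as description and not as independent tests. In the quasi-likelihood test of edgeR on pool sums, EGFR fell by 4.95 on the log2 scale (SE 0.41, adjusted p = 3.91e-07) between D0 and D15. No step between adjacent days passed the limits (adjusted p under 0.01 with a change of over 0.25 on the log2 scale); the first, from D0 to D3, was -1.05 (SE 0.34, adjusted p = 0.0262).

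ERBB3, the neuregulin receptor, stood at 3.58 and 3.63 CPM on D0, 1.85 and 1.78 on D3, 1.75 and 2.38 on D5, 4.21 and 3.70 on D7, 11.3 and 13.6 on D9, 14.1 and 17.3 on D11, 14.6 and 21.5 on D13 and 22.4 and 18.9 on D15. It was low until D7 and above 10 CPM in every pool from D9 on, and the pools of D13 overlapped those of D11 and of D15, which lay apart, with D15 the higher. As for EGFR, the p-values of ERBB3 are given as description. ERBB3 rose by 1.62 on the log2 scale (SE 0.26, adjusted p = 0.00114) from D7 to D9, the only step after D3 at which 1 of the 7 genes tested passed. That call was lost without D7 pool B or without D9 pool B (adjusted p up to 0.0189). The earlier step went the other way: ERBB3 fell by 1.02 on the log2 scale (SE 0.26, adjusted p = 0.00755) between D0 and D3, a call lost in 15 of the other settings tried, among them those without any 1 pool of D0, D3, D9, D11 or D15 or without D7 pool A, with adjusted p up to 0.0371. The D0 to D3 call was also lost without the smaller aliquots (0.0336) and in collagen-marker-high cells alone (adjusted p = 0.160 in edgeR).

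ERBB2, the partner receptor, was at 10.5 and 11.6 CPM on D0, 4.72 and 3.91 on D3, 5.12 and 3.12 on D5, 4.63 and 7.25 on D7, 6.83 and 6.95 on D9, 13.3 and 16 on D11, 20.1 and 20.1 on D13 and 30.8 and 22.6 on D15. Its course was a dip and a climb: both D0 pools lay above all pools of D3 to D9 and below all pools of D11 to D15. ERBB2 fell by 1.4 on the log2 scale (SE 0.25, adjusted p = 0.000958) from D0 to D3, and from D0 to D15 it rose by 1.2 on the log2 scale (SE 0.25, adjusted p = 0.000968). With D0 pool A or D15 pool A left out or with the stricter cell filter, the D15 call was lost, at 0.88 to 1.17. It was also lost in collagen-marker-high cells alone, where the change was -0.21 (adjusted p = 0.585 in edgeR). The D3 call was lost when only the pools of those days were fitted (adjusted p = 0.0166). ERBB2 had no step after D3 that passed, the nearest being D9 to D11 at 1.07 (SE 0.25, adjusted p = 0.0174).

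ERBB4 gave 0 UMIs in both pools of D0, between 0 and 4 UMIs in each pool of D3 to D9, and then 331 and 343 on D11, 561 and 1957 on D13 and 312 and 808 on D15. In CPM, D11 gave 1.84 and 2.2, D13 7.27 and 12.7 and D15 9.40 and 12.5. All pools of D11 lay below those of D13 and D15, which overlapped each other. D11 stood 91.5-fold above D9 (95% counting interval 39.0 to 283, exact and for counting error only, from 674 and 5 UMIs), and D13 5.42-fold above D11. The limit that 0 UMIs allows over both D0 pools (3 UMIs) was 0.00956 CPM. ERBB4 was detected in 2.76% of cells and so failed the filter of 5%; fitted with no filter on genes, both steps passed, at 6.37 (adjusted p = 1.69e-09) and 2.34 (adjusted p = 0.000120), where 5.02% and 1.17% of 29281 genes did.

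Of all genes tested, 25.6% passed between D0 and D3, 3.56% in the next step to D5, 2.06% to D7, 7.37% to D9, 4.09% to D11, 0.117% to D13 and 0.0860% to D15. Of the 7 genes of the set that were tested, 3 passed at the first of these steps, 1 from D7 to D9 and 0 at the other 5. At those 5 steps 3, 3, 3, 3 and 1 of the genes had an unadjusted p below 0.05 in edgeR (D5 to D7, D9 to D11, D11 to D13, D13 to D15 and D3 to D5), and DESeq2 called 2 from D9 to D11 and 0 at the others. Against D0, whose pools all of these comparisons share, 4 of 7 passed on D5, 5 each on D7, D9 and D13, and 6 each on D11 and D15. The share of all genes was 29.5% for D5, 36.7% for D7, 49.0% for D9, 43.0% for D11, 48.7% for D13 and 53.4% for D15. These counts are above the shares of all genes on each of the days, but they are not read as an excess. The 7 genes are few, and they were chosen with earlier results of these data known.

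The exchange of receptors can be read from their relative abundance. EGFR made up 71.1% and 72.1% of the UMIs of the 4 receptors in the pools of D0, 44.4% and 52.8% on D7, 19.8% and 15.0% on D9 and 1.61% and 2.59% on D15. ERBB3 went from 7.34% and 6.65% on D0 to 49.9% and 56.2% on D9, its highest day, and stood at 35.2% and 34.2% on D15. ERBB2 held 21.6% and 21.2% on D0 and 48.4% and 40.7% on D15, and ERBB4 16.2% and 22.5% on D13. EGFR was the most abundant of the 4 in every pool up to D7, ERBB3 in every pool of D9 and D11, and ERBB2 in both pools of D15; on D13 ERBB2 led in pool A and ERBB3 in pool B.

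As a single value, log2 of ERBB3 over EGFR (each in CPM + 1) was -2.96 and -3.13 on D0, -2.25 and -3.15 on D3, -2.49 and -1.98 on D5, -0.63 and -1.50 on D7, 1.16 and 1.66 on D9, 1.47 and 1.27 on D11, 2.01 and 2.91 on D13 and 3.53 and 3.03 on D15. All pools up to D7 were below 0 and all later pools above it. The 8 pools of D9 to D15 averaged 2.13 ± 0.91 (SD, n = 8) and the 6 of D3 to D7 -2.0 ± 0.87 (SD, n = 6), a difference of 4.13, given without a test because the receptors were chosen with this ratio known. The sum over cells does not say whether single cells exchanged receptors or cells of one kind became more numerous: fewer cells of a type and less RNA per cell cannot be told apart in pool sums.

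**Figure D2:**
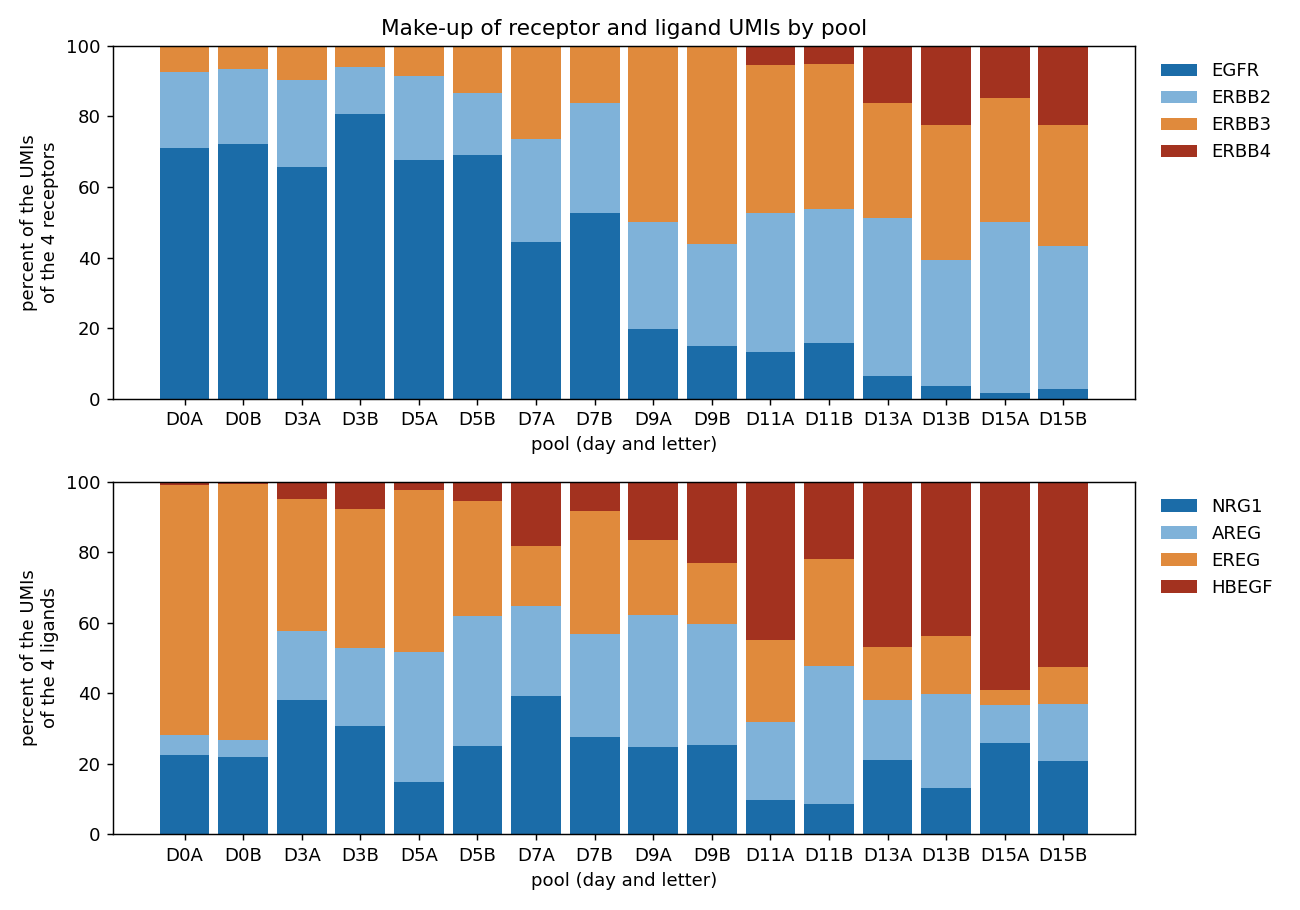
Stacked bars give the share of each receptor (top) in the UMIs of the 4 receptors, and of each ligand (bottom) in the UMIs of the 4 ligands, in percent, for each of the 16 pools. EGFR fills the largest part of the receptor bars up to D7 and a small part after it, and EREG gives way to HBEGF among the ligands.

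The ligands had different courses. EREG (epiregulin), an EGFR ligand, was the leading ligand of the fibroblasts, at 65.3 and 70.5 CPM on D0, 13.7 and 19.1 on D3, 33.9 and 14 on D5, 3.79 and 10.3 on D7, 9.96 and 6.40 on D9, 11.7 and 19.3 on D11, 5.88 and 6.05 on D13 and 0.663 and 2.82 on D15. D0 stood above every other pool, D15 below every other day's pools, and the days between overlapped in part, D11 in both pools being above D9. The aliquots differed in D5 pool B (24.9 and 10.2 CPM), D9 pool A (0.397 and 11.1 CPM) and D9 pool B (3.75 and 8.54 CPM). Those of D5 pool A, D7 pool B and D11 pool B lay closer together. EREG fell by 5.28 on the log2 scale (SE 0.69, adjusted p = 2.30e-05) between D0 and D15. Its share of the 4 ligands' UMIs went from 70.9% and 72.6% on D0 to 4.08% and 10.6% on D15.

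AREG (amphiregulin), also an EGFR ligand, was at 5.29 and 4.74 CPM on D0, 7.19 and 10.8 on D3, 27.1 and 15.8 on D5, 5.78 and 8.59 on D7, 17.5 and 12.7 on D9, 11 and 24.7 on D11, 6.58 and 9.85 on D13 and 1.75 and 4.26 on D15. Its highest days were D5, D11 and D9, whose pools overlapped, and D15 was below all others. AREG rose by 2.0 on the log2 scale (SE 0.47, adjusted p = 0.00452) from D0 to D5, but this call was lost without either D0 pool, without D5 pool A, with the stricter cell filter or without the smaller aliquots (adjusted p up to 0.0438). The D11 difference from D0, 1.67 (SE 0.47, adjusted p = 0.00860), was lost in 11 other settings, among them those without any 1 pool of D0, D5, D7 or D9 or without D11 pool B (adjusted p up to 0.112), and also without the smaller aliquots (0.0888), and D15 did not pass against D0, at -0.77 (SE 0.47, adjusted p = 0.167). AREG was 36.7% and 36.8% of ligand UMIs on D5 and 37.4% and 34.3% on D9, where its level differed between the aliquots as given above.

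HBEGF (heparin-binding EGF-like growth factor), a ligand of EGFR and ERBB4, was at 0.804 and 0.686 CPM on D0, 1.82 and 3.79 on D3, 1.88 and 2.41 on D5, 4.15 and 2.43 on D7, 7.75 and 8.58 on D9, 22.4 and 13.9 on D11, 18.2 and 16.2 on D13 and 9.61 and 14 on D15. It was lowest on D0, intermediate on D3 to D7 with overlapping pools, and on average highest on D11 and D13. HBEGF rose by 1.90 on the log2 scale (SE 0.41, adjusted p = 0.00294) from D0 to D3, a call lost without either D0 pool or without D3 pool B (adjusted p up to 0.0397), and from D0 to D13 it rose by 4.43 on the log2 scale (SE 0.44, adjusted p = 2.58e-06). HBEGF held 0.873% and 0.707% of ligand UMIs on D0 and 59.2% and 52.5% on D15, where it led.

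NRG1 (neuregulin), the ligand of ERBB3 and ERBB4, was at 20.7 and 21.1 CPM on D0, 13.9 and 14.9 on D3, 11 and 10.8 on D5, 8.87 and 8.16 on D7, 11.5 and 9.33 on D9, 4.80 and 5.46 on D11, 8.20 and 4.84 on D13 and 4.22 and 5.55 on D15. D0 was above D3, D3 above D5, and D7 and D9 did not overlap, with D9 the higher; D11, D13 and D15 overlapped. NRG1 fell by 2.15 on the log2 scale (SE 0.23, adjusted p = 4.03e-06) between D0 and D15. The step from D9 to D11, -1.04 (SE 0.22, adjusted p = 0.0107), missed the limit.

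With the 4 late days set against the 3 days of transfection, 6 of the 7 genes tested passed, where 43.5% of all genes did. The genes were chosen with earlier results of these data known, among them the ratio of ERBB3 to EGFR. The p-values, those of ERBB3 and EGFR above all, are therefore given as description and not as independent tests. ERBB3 rose by 2.71 on the log2 scale (SE 0.15, adjusted p = 8.30e-09), HBEGF rose by 2.24 on the log2 scale (SE 0.22, adjusted p = 2.43e-06) and ERBB2 rose by 1.66 on the log2 scale (SE 0.14, adjusted p = 4.80e-07). EGFR fell by 2.25 on the log2 scale (SE 0.19, adjusted p = 3.95e-07). EREG fell by 1.24 on the log2 scale (SE 0.31, adjusted p = 0.00416) and NRG1 fell by 0.82 on the log2 scale (SE 0.12, adjusted p = 6.57e-05), while AREG, at -0.33 (SE 0.25, adjusted p = 0.278), did not pass. EREG was the least firm of these: its call was lost without D5 pool A, D7 pool B, D9 pool B or D11 pool A, with the stricter cell filter (adjusted p up to 0.109) and without the smaller aliquots (0.0126).

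The share of cells with a UMI was compared after each cell had been thinned to 5000 UMIs. EGFR was seen in 16.6% ± 1.75 of cells (SD, n = 2 pools) on D0, 2.2% ± 0.377 on D9 and 0.474% ± 0.671 on D15. ERBB3 was seen in 1.75% ± 0.00738 on D0, 1.79% ± 0.331 on D7, 6.20% ± 0.730 on D9 and 5.95% ± 0.00510 on D11. On D15 it was 10.3% ± 2.83. Without thinning the shares were 61.0% ± 6.68 for EGFR on D0 and 52.3% ± 17.6 for ERBB3 on D15. ERBB4 was seen in 0 of 10776 thinned cells on D0, in 0.706% ± 0.0793 on D11 and in 3.45% ± 1.90 on D15. EREG was seen in 21.8% ± 0.719 on D0 and 0.856% ± 0.467 on D15, AREG in 1.71% ± 0.187 and 0.896% ± 0.276, NRG1 in 9.73% ± 0.542 and 2.30% ± 0.774, and HBEGF in 0.436% ± 0.00566 and 4.38% ± 0.989.

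To separate the kinds of cells, each cell was classed by log2 of the ratio of its UMIs of 9 pluripotency markers (such as DPPA4, L1TD1 and EPCAM) to those of 10 collagen and matrix markers (such as COL1A1, DCN and LUM), with 1 added to each. Cells above 1 are called pluripotency-marker-high, cells below -1 collagen-marker-high, and the rest intermediate. None of these markers is in the set or among the transfected factors. On D9 to D15, 8744 cells were pluripotency-marker-high, 5862 collagen-marker-high and 3121 intermediate. Collagen-marker-high cells made up 87.0% and 92.8% of the pools on D7, 46.4% and 36.9% on D9, 47.2% and 42.7% on D11, 33.5% and 21.7% on D13 and 10.3% and 12.3% on D15. The pools of D11 stood apart from each other, with 14.5% and 48.3% pluripotency-marker-high and 38.2% and 8.99% intermediate cells. These are ranges of a ratio and not cell types, no doublets were removed, and the part of free RNA in low values was not tested.

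Within D9 to D15, ERBB3 and ERBB2 were higher in pluripotency-marker-high cells, and EGFR and all 4 ligands in collagen-marker-high cells. ERBB3 was at 20.5 to 26.6 CPM (median 23.9) in the pluripotency-marker-high cells of the 8 pools and at 1.22 to 7.89 CPM (median 3.26) in the collagen-marker-high cells of the same pools. EGFR was at 0.523 to 1.58 CPM (median 0.838) and 3.58 to 18.1 CPM (median 9.34). No pool of either gene overlapped between the classes. How many of all genes were apart in this way was not counted, and 73.4% of all genes passed between the classes in the fit that follows. With the pool as a block, ERBB3 was higher in pluripotency-marker-high cells by 2.88 (SE 0.26, adjusted p = 2.62e-05) and EGFR differed by -3.37 (SE 0.28, adjusted p = 1.85e-05), both in 8 of 8 pools. ERBB2 differed by less, 0.86 (SE 0.06, adjusted p = 1.06e-05), and was higher in pluripotency-marker-high cells in 8 of 8 pools.

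All 4 ligands were higher in collagen-marker-high cells in each of the 8 pools. EREG ranged over 0.0335 to 2.43 CPM (median 0.373) in pluripotency-marker-high and 7.53 to 57.2 CPM (median 26.0) in collagen-marker-high cells, AREG over 0.637 to 2.87 CPM (median 0.979) and 14 to 72.7 CPM (median 37.3). HBEGF ranged over 1.66 to 8.84 CPM (median 5.30) and 17.1 to 90.3 CPM (median 50.6), and NRG1 over 2.15 to 9.40 CPM (median 3.23) and 8.15 to 17.6 CPM (median 13.2). The EGFR ligands did not overlap between the classes, and NRG1 did, but how many of all genes were apart in this way was not counted. The class differences were -5.73 (SE 0.46, adjusted p = 1.51e-05) for EREG, -4.87 (SE 0.33, adjusted p = 6.70e-06) for AREG, -3.29 (SE 0.13, adjusted p = 1.06e-06) for HBEGF and -1.77 (SE 0.09, adjusted p = 2.42e-06) for NRG1. All 7 genes tested passed, but so did 73.4% of all genes, and the 7 of 7 is read as no more than that background.

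**Figure D3:**
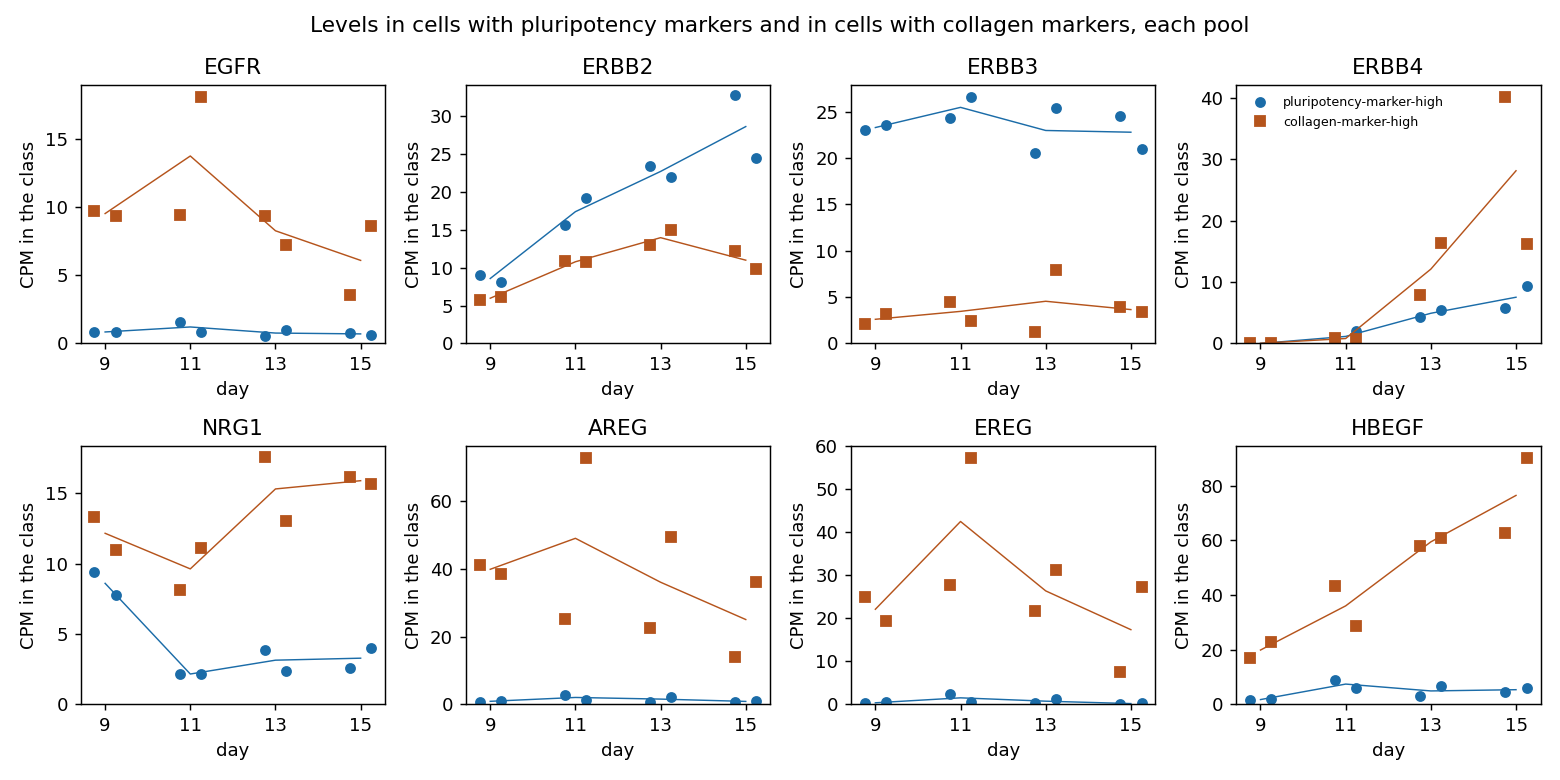
Level of each gene in CPM (linear axes from 0) on D9 to D15 in pluripotency-marker-high cells (circles) and collagen-marker-high cells (squares), a point for each pool and a line for the mean of 2 pools. ERBB3 is high and level in the former throughout, ERBB2 climbs there, and AREG, EREG and HBEGF are high in the latter.

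ERBB3 was already present before D9 in the few cells that had left the fibroblast range. On D7 the intermediate cells (224 and 168 cells) gave 11.5 and 11.8 CPM, against 2.79 and 2.68 CPM in the collagen-marker-high cells of the same pools. EGFR was 2.57 and 3.76 CPM in the intermediate cells and 7.95 and 13.3 CPM in the others. In pluripotency-marker-high cells ERBB3 was 23.0 and 23.6 CPM on D9 and 24.5 and 21.0 CPM on D15, a difference of -0.03 (SE 0.21, adjusted p = 0.918). ERBB2 in these cells was 8.97 and 8.16 CPM on D9, 15.6 and 19.1 on D11, 23.4 and 21.9 on D13 and 32.7 and 24.4 on D15, and it rose by 1.74 on the log2 scale (SE 0.22, adjusted p = 0.00123) from D9 to D15, where 12.1% of all genes passed. The levels of D9, D11 and D13 did not overlap.

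The class difference of NRG1 was small on D9 and larger later. In pluripotency-marker-high cells it was 9.40 and 7.80 CPM on D9, 2.15 and 2.15 on D11, 3.87 and 2.39 on D13 and 2.58 and 3.97 on D15, and both D9 pools lay above all others. From D9 to D11 NRG1 fell by 2.04 on the log2 scale (SE 0.31, adjusted p = 0.009998, barely inside the limit), where 1.16% of all genes passed. The difference between D15 and D9, -1.38 (SE 0.30, adjusted p = 0.0112), missed it. Between the classes NRG1 differed by -0.50 (SE 0.17, adjusted p = 0.0348) on D9 and -2.17 (SE 0.18, adjusted p = 9.41e-05) on D11. On D13 and D15 the difference was -2.24 and -2.16. A test of whether class differences changed from the mean of D9 and D11 to that of D13 and D15 cannot test this step from D9 to D11. It called 0 of the 7 genes, where 4.35% of all genes passed. Unadjusted, 3 of the 7 had p below 0.05 in edgeR, and DESeq2 called 2. NRG1 was nearest at -0.86 (SE 0.18, adjusted p = 0.0212), followed by ERBB2 at 0.53 (SE 0.13, adjusted p = 0.0340). Without the mesendoderm-marker cells described below, NRG1 passed this test at -1.21 (SE 0.15, adjusted p = 0.00533), where 3.66% of all genes did.

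The collagen-marker-high cells themselves changed. HBEGF in these cells alone was 0.804 and 0.686 CPM on D0, 4.55 and 2.53 on D7, 17.1 and 22.6 on D9, 43.3 and 28.8 on D11, 58.0 and 61.0 on D13 and 62.7 and 90.3 on D15. Every late pool was above every earlier one. From D7 to D9 HBEGF rose by 2.43 on the log2 scale (SE 0.40, adjusted p = 0.00753), where 0.571% of all genes passed. EGFR was 34.7 and 39.4 CPM on D0, 12.6 and 23.7 on D3, 14.5 and 12.4 on D5, 7.95 and 13.3 on D7, 9.68 and 9.35 on D9, 9.41 and 18.1 on D11, 9.32 and 7.19 on D13 and 3.58 and 8.59 on D15, the value of D15 A resting on 10 UMIs. It fell by 2.70 on the log2 scale (SE 0.44, adjusted p = 0.000388) between D0 and D15, where 24.3% did. The pools of D7, D9 and D11 overlapped. In the same comparison EREG, at -2.09 (SE 0.59, adjusted p = 0.0137), and NRG1, at -0.58 (SE 0.22, adjusted p = 0.0572), did not pass, unlike in the sums over all cells. AREG was 5.29 and 4.74 CPM on D0, 7.23 and 10.8 on D3, 27.4 and 16.3 on D5, 6.45 and 9.50 on D7, 41.2 and 38.5 on D9, 25.2 and 72.7 on D11, 22.5 and 49.5 on D13 and 14 and 36.0 on D15. Both D7 pools were below both D5 pools, and both D9 pools above all earlier ones. Over all cells of D9, AREG was at 0.555 and 19.5 CPM in the aliquots of pool A and 3.34 and 20.3 CPM in those of pool B. Whether the place of D9 in this order holds in each aliquot was not tested.

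Between D3 to D7 and D9 to D15, 3 of the 7 genes passed in the collagen-marker-high cells, where 28.3% of all genes did. They were HBEGF at 3.87 (SE 0.24, adjusted p = 6.07e-08), AREG at 1.61 (SE 0.29, adjusted p = 0.000706) and ERBB2 at 1.00 (SE 0.14, adjusted p = 0.000102). EGFR was at -0.65 (SE 0.21, adjusted p = 0.0248), ERBB3 at 0.69 (SE 0.33, adjusted p = 0.119), EREG at 0.77 (SE 0.30, adjusted p = 0.0558) and NRG1 at 0.15 (SE 0.11, adjusted p = 0.307), and none of these passed. The value of EREG was above 0 here but below 0 in the sums over all cells, and AREG passed here but not there. NRG1, below 0 in the sums, was near 0, at -0.01 (SE 0.11, adjusted p = 0.943) with the mesendoderm-marker cells described below also left out. Late collagen-marker-high cells were few on D15 (59 and 259 cells).

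**Figure D4:**
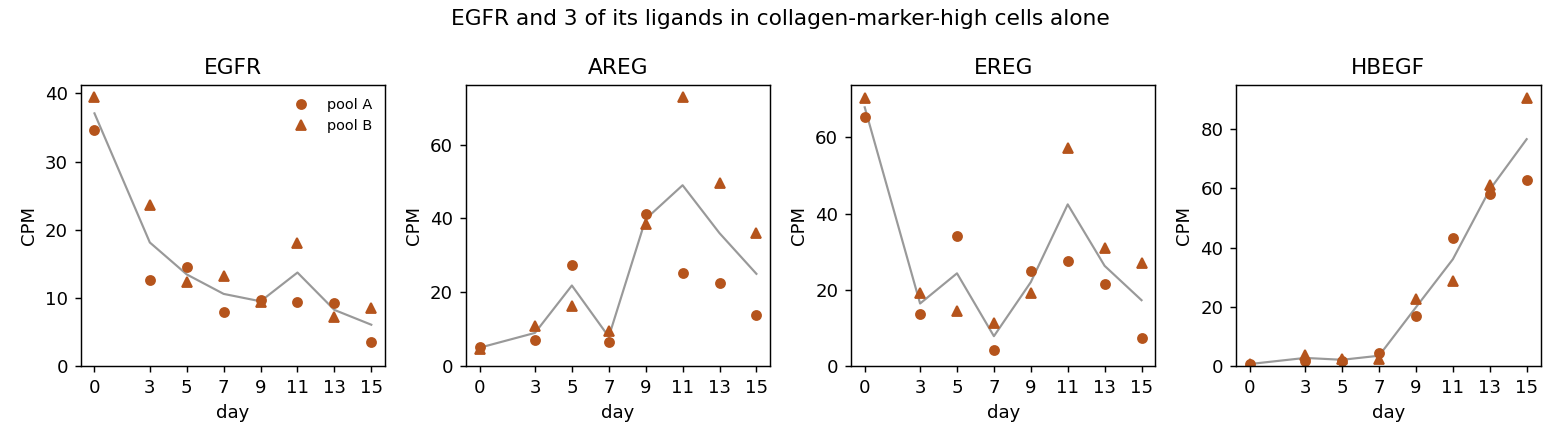
Level in CPM (linear axes from 0) of EGFR, AREG, EREG and HBEGF in collagen-marker-high cells only, against day. Circles and triangles are pools A and B and the line is their mean. EGFR is highest on D0, whereas HBEGF is lowest on D0 and highest on D15.

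Which genes were seen in the same cells was described at 5000 UMIs per cell, without a test, since counts this low leave many cells unread. AREG and EREG were seen together in 1.52% to 4.35% of collagen-marker-high cells in 7 of the 8 late pools, which is 2.83 to 8.00 times the product of their shares, and in 0 cells of the pool D15 A (59 cells). No pluripotency-marker-high cell showed both, but the product there was at most 0.0111% of a pool's cells, too low to expect any. ERBB2 and ERBB3 were seen together in 0.380% to 1.52% of pluripotency-marker-high cells, 0.819 to 1.4 times the product. EGFR and ERBB3 were seen together in 0 to 4 cells of each late pool, where the product was at most 0.234% of a pool's cells. The 4 cells, in D13 B, were 0.847 times the product. NRG1 and ERBB3 were seen together in 0 to 7 pluripotency-marker-high cells, where the product was at most 0.418%. They were above the product in D13 B (0.272% against 0.182%) and D9 B (0.508% against 0.355%) and below it in the other pools. Counts this low do not show whether either pair avoids the same cells.

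On D9 ERBB4 gave too few UMIs to compare classes (0 to 2 in each). In the 6 later pools it was higher in collagen-marker-high than in pluripotency-marker-high cells in 5, and highest in the intermediate cells of the 5 pools that held at least 50 of them. It was 4.36 and 5.49 CPM in pluripotency-marker-high and 7.90 and 16.3 CPM in collagen-marker-high cells on D13, and 5.77 and 9.31 CPM against 40.1 and 16.2 CPM on D15. Fitted with no filter on genes, the class difference was 0.27 (SE 0.47, adjusted p = 0.745) on D11, -1.16 (SE 0.37, adjusted p = 0.0133) on D13 and -1.77 (SE 0.40, adjusted p = 0.00105) on D15, of which the last passed, where 25.7% of all genes did; over D9 to D15 it was -1.63 (SE 0.71, adjusted p = 0.0584). Intermediate cells gave 34.4, 43.0 and 53.6 CPM in D13 A, D13 B and D15 B. The list of mesendoderm markers, genes of the early embryo's first inner layers (CER1, EOMES, brachyury, MIXL1, GSC, SOX17, GATA6 and FOXA2), summed to 0.138 to 0.143 CPM on D0, with 5 of 8 at 0, to 12.7 to 15.8 CPM on D9 and to 151 to 202 CPM on D11. After these values had been seen, cells with at least 200 CPM of the list were set apart. They were 1094 of 14332 cells of D11 to D15 (7.63%), with 910 cells within 2-fold of the limit.

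These cells held 78.3% of the ERBB4 UMIs of D11 to D15 and 6.94% of the UMIs of all genes. In the order D11 A, D11 B, D13 A, D13 B, D15 A and D15 B, ERBB4 was at 17.2, 29.9, 111, 134, 179 and 166 CPM in mesendoderm-marker cells and at 0.419, 0.151, 0.662, 4.18, 1.36 and 2.43 CPM in the other cells. In that order there were 235, 225, 104, 340, 29 and 161 mesendoderm-marker cells. D15 A thus falls short of the 50 cells required in the marker classes. Without thinning, 17.4% to 80.7% of mesendoderm-marker cells and 0.589% to 10.4% of the others had an ERBB4 UMI, with median depths of 22846 to 60697 and 30427 to 57365 UMIs. By amount of the markers, ERBB4 was at 0.131 to 2.59 CPM over the 6 pools in cells with none and 0.409 to 14.3 CPM in cells with 50 to 200 CPM. It was at 2.22 to 194 CPM in cells with 200 to 1000 CPM and 41.5 to 205 CPM in cells with 1000 CPM or more. The group of 200 to 1000 CPM was low on D11, at 2.22 CPM in pool A (137 cells) and 10.0 CPM in pool B (118 cells).

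NRG1, a ligand of ERBB4, was also higher in mesendoderm-marker cells in 6 of 6 pools, at 5.57, 9.33, 35.5, 19.6, 36.7 and 44.1 CPM against 4.73, 5.18, 6.46, 3.8, 2.68 and 3.04 CPM in the other cells, in the same order. The groups were closest on D11. These cells held 21.6% of the NRG1 UMIs of these days. ERBB3 went the other way in 6 of 6 pools, at 1.95 to 9.89 CPM in mesendoderm-marker cells and 14.6 to 23.2 CPM in the others. Its values in the mesendoderm-marker cells of D13 A and D15 A rest on 9 UMIs each. ERBB2 was lower in 5 of 6 pools, 8.00 to 17.3 against 13.2 to 31.9 CPM. Without these cells, the ERBB4 level in the classes of D15 was 0.626 and 1.42 CPM in pluripotency-marker-high cells and 8.74 and 9.01 CPM in collagen-marker-high cells, from 22 and 47 UMIs in the latter. These values are a description of groups chosen after ERBB4 had been seen, with no test.

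**Figure D5:**
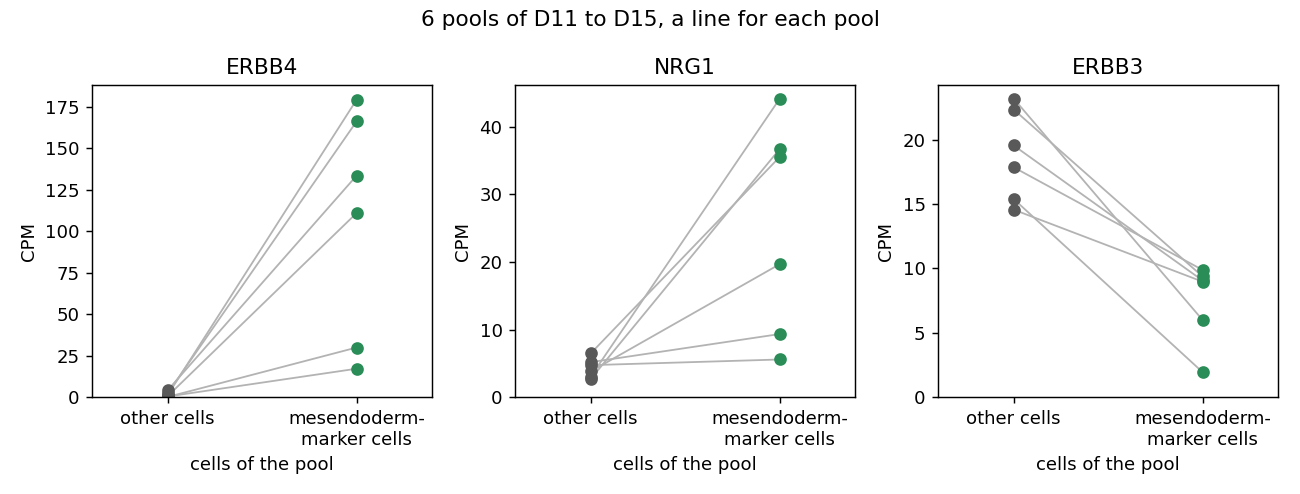
Level in CPM (linear axes from 0) of ERBB4, NRG1 and ERBB3 in the other cells (grey) and in the mesendoderm-marker cells (green) of the 6 pools of D11 to D15, a line for each pool. ERBB4 and NRG1 rise along every line and ERBB3 falls along every line.

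Marker lists of other cells were summed over each pool. Neural crest and glia markers summed to 1.96 to 2.05 CPM on D0 and 18.0 to 18.4 CPM on D15, where 4 of 6 were at 1 CPM or more. Surface epithelium markers reached 29.1 to 37.1 CPM on D11, with 1 of 6 at 1 CPM or more, and KRT5, TP63 and KRT6A were at 0 on D0. Trophoblast and amnion markers summed to 66.3 to 71.5 CPM on D0, 185 to 187 CPM on D11 and 22.2 to 23.7 CPM on D15, with 5 of 8 at 1 CPM or more on D11 and CGB5 at 0, and macrophage markers to 88.7 to 89.8 CPM on D0, with 1 of 6 at 1 CPM or more, and 7.02 to 7.47 CPM on D15. Their part in the levels of the ERBB genes was not tested.

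The rest of the pathway was taken from fixed lists and compared between D3 to D7 and D9 to D15, where 43.5% of all genes passed and the median over all genes was -0.02 on the log2 scale. None of the other 7 ligands passed the filter: EGF reached a day mean of 0.852 CPM, NRG2 0.587, NRG4 0.544, TGFA 0.397, NRG3 0.298, EPGN 0.287 and BTC 0.0764 CPM. Of 10 sheddases and partners, which cut or process ligands, 2 rose and 4 fell (median -0.34), among them ADAM19 (1.10, adjusted p = 4.49e-05) and ADAM15 (-1.50, adjusted p = 8.63e-06). Between the marker classes, 10 of 10 were lower in pluripotency-marker-high cells, where 73.4% of all genes passed in either direction, led by ADAM12 (-4.66, adjusted p = 7.03e-06) and ADAM9 (-2.60, adjusted p = 9.95e-07). Of 26 adaptors and effectors, 4 rose and 5 fell (median -0.12), including the PI3-kinase subunits PIK3CB (1.25, adjusted p = 1.48e-05) and PIK3R1 (-1.33, adjusted p = 0.000426), and the small GTPase HRAS (-0.96, adjusted p = 8.91e-07). Of 18 inhibitors and feedback genes, 4 rose and 5 fell (median 0.16), including the phosphatases DUSP5 (1.26, adjusted p = 0.000290) and DUSP4 (-1.61, adjusted p = 1.35e-06) and the ubiquitin ligase CBLB (-1.13, adjusted p = 2.18e-05). Of 10 genes that respond to ERK, 1 rose and 5 fell (median -0.26): FOSL1 and EGR1, transcription factors of the immediate early response, fell most, FOSL1 (-2.28, adjusted p = 1.29e-06) and EGR1 (-2.15, adjusted p = 4.39e-07), and MYC, which was itself among the transfected mRNAs, rose (0.82).

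The genes whose log2(CPM + 1) over the 16 pools was most like that of a receptor were, for EGFR, TBX3 (r = 0.99), LYST (0.99) and CD109 (0.99); for ERBB2, ITGA7 (r = 0.98), ARHGEF10L (0.97) and FBXO27 (0.97). ERBB3 was followed most closely by RBM47 (r = 0.99), APOC1 (0.99) and ARHGEF35 (0.99), and ERBB4 by SLC1A6 (r = 0.99), PRSS21 (0.99) and SHISA9 (0.99). Among ligands the nearest were GATA2 (r = 0.95), BORCS7 (0.95) and S100A10 (0.94) to NRG1, FAM210B (r = 0.96), CALCOCO1 (0.96) and TMEM87B (0.95) to EREG and SMCO4 (r = 0.97), RGS16 (0.97) and ULK4 (0.97) to HBEGF. AREG had the least similar neighbours, HMGA2 (r = 0.84), CCL7 (0.80) and RIN2 (0.80). These are descriptions over 16 pools that share their days and libraries, picked as the top of 12794 genes.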

How the data were processed

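The deposited files are UMI counts per gene and cell barcode, made by the authors from 10x 3' libraries with Cell Ranger 2.2 (submitters' processing notes) on GRCh38, 1 matrix for each of 22 libraries. Barcodes under 1000 genes or over 10% mitochondrial UMIs were left out (2222 of 44197), no doublet caller was run, and aliquots of a pool were summed, giving 16 pools, 2 for each of 8 days. Pools held 33181614 UMIs or more, which limits the precision for genes with few UMIs, such as ERBB4 before D11.

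Pool sums were tested with edgeR 4.0.16 (quasi-likelihood test, TMM scaling, 1 fit over all 16 pools, R 4.3.3) on genes seen in at least 5% of cells (12794 genes), with Benjamini-Hochberg adjustment over all of them; a gene passed at an adjusted p under 0.01 with a change of over 0.25 on the log2 scale. Marker classes were compared on D9 to D15 with the pool as a block, in classes of at least 50 cells and without the marker genes. The labels do not say whether the 2 pools of a day came from separate cultures beyond their chips, so p-values measure the spread between pools, which may be technical. Alternatives were DESeq2 1.42.0, other gene and cell filters, thinning and single pools left out; the fits within 1 class, without mesendoderm-marker cells and without the smaller aliquots were added after the data had been seen. The scripts were tested on simulated data. The genes named are the 8 of the set, for each the 3 genes with the highest Pearson correlation over the pools, and of each pathway list those that passed between D3 to D7 and D9 to D15 with the 2 largest changes each way, of which a part is printed. The genes and lists were chosen with earlier results of these data known. Shares used Python 3.11.15.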

Additional observations from a re-analysis of the deposited data

How the results depend on the processing

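Of the changes of single genes that had passed, 1157 values kept direction and call under the other filters, scalings, tools and left-out pools, 69 lost the call and 0 changed sign; the cause was not tested. Between adjacent days 4 calls were made, and 10 at an adjusted p under 0.05 whatever the fold, 10 with DESeq2, 7 with no filter on genes, 2 with 2500 cells per day and 2 to 5 with single pools left out (2 without D0 pool A, D0 pool B or D9 pool B). Later days against D0 gave 34 calls, and 25 to 35 with single pools left out. Between D3 to D7 and D9 to D15, 6 genes of the set and 5565 of all genes passed, 5 to 6 and 4818 to 6107 with single pools left out, 3 and 3627 in collagen-marker-high cells alone, 3 and 3633 in these without mesendoderm-marker cells, and 10400 of all genes with no filter on genes, where more were tested. In collagen-marker-high cells alone the log2 changes of ERBB3 were -0.12 (D7 to D9), -0.64 (D0 to D9), -0.22 (D0 to D11) and -0.18 (D0 to D15), that of ERBB2 -0.21 (D0 to D15), that of NRG1 0.15 and that of EREG 0.77 (D3 to D7 against D9 to D15), each opposite in sign to the sum over all cells; without mesendoderm-marker cells EREG was at 0.81 and NRG1 at -0.01, the sign of its sum. Class differences over D9 to D15 gave 7 genes in each fit and 8779 to 9338 of all genes with single pools left out; on single days NRG1 missed the limit on D9, as it did without mesendoderm-marker cells, where ERBB3 also missed it on D15 (2.65, adjusted p = 0.0112 in edgeR). Their change with time gave 0, and 2 at an adjusted p under 0.05, 1 with no filter on genes, 2 with DESeq2, 1 (NRG1) without mesendoderm-marker cells and 0 to 1 with single pools left out (HBEGF, without D13 pool B). The log2 ratio of ERBB3 to EGFR differed by 3.90 to 4.40 with single pools left out and by 3.83 with the stricter cell filter. It depended on the value added to each CPM, at 4.48 with 0.5 and 2.66 with 5 in place of 1. The share of cells with ERBB3 on D15 depends on depth by construction: 4.40% at 2000 UMIs, 18.0% at 10000 and 52.3% without thinning. Pools of the same letter were treated as unpaired. The correlation of the A minus B difference between days ranged from -0.45 to 0.82 over 28 pairs of days, which cannot exclude a shared effect on some days. With the letter as a replicate block the calls were 4, 34 and 6, with 5849 of all genes; without the pool as a block the classes gave 7, 7709 of all genes and 0 with time.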
